A study of Triticum aestivum with 6 samples.

Results

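In developing grain of bread wheat (Triticum aestivum), 100 of 221925 transcript sequences were present at like levels in aleurone and starchy endosperm at 6 days post anthesis (DPA) and were at least 8-fold lower in both tissues at 14 DPA. They were chosen on RPKM (reads scaled to the length of the sequence and to the total of the library). Each had at least 20 RPKM in both 6 DPA libraries, with aleurone and starchy endosperm within 4-fold of each other, and at most 1/8 of the 6 DPA value of the same tissue at 14 DPA. The values at 6 and 14 DPA are therefore a description of how the sequences were chosen, while the 2 libraries of 9 DPA took no part in the choice. At 9 DPA the tissues did not look alike: 76 of the 100 sequences were already at least 4-fold lower than at 6 DPA in starchy endosperm, and 19 were in aleurone.

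The tissues came from seeds of the cultivar Banks, and were microdissected on ice, and the labels name no treatment or modified genotype. The 6 groups were aleurone and starchy endosperm at 6, 9 and 14 DPA, with 1 library each. At least 5 seeds, taken from 3 spikes on as many plants, went into each tissue pool. A library is thus 1 pool without replicate error, a difference between 2 libraries is a difference between those pools, and fewer cells of a type and less RNA per cell cannot be told apart. The 9 DPA libraries were the shallowest, with 4549034 reads for aleurone and 4104682 for starchy endosperm, and the other 4 held 27150859 to 37911327 reads.

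The endosperm of a cereal grain begins as a shared cytoplasm with many nuclei, which is then divided into cells. The outer cell layer or layers become aleurone, a living tissue that secretes enzymes at germination, and the inner cells become starchy endosperm, which stores starch and protein and dies as the grain dries. Early endosperm is a dividing tissue, and division gives way to the filling of storage cells. The files do not pair their identifiers with genes, and 0 of them matched the wheat RefSeq gene table of the Chinese Spring assembly. The sequences are therefore given below without gene name, function, chromosome or letters, and known markers of the tissues were not looked up. Several sequences can belong to 1 gene, so 100 sequences are not 100 genes.

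At 6 DPA the 100 sequences ranged from 20.9 to 884 RPKM in aleurone, with a median of 51.9, and from 20.4 to 779 RPKM in starchy endosperm, with a median of 42.5. At 9 DPA the median was 40.4 RPKM in aleurone (range 0.699 to 678) but 5.72 RPKM in starchy endosperm (range 0 to 154). At 14 DPA the medians were 3.30 RPKM in aleurone, with a highest value of 108, and 1.53 RPKM in starchy endosperm, with a highest value of 31.7. The aleurone values of 6 and 9 DPA thus overlap over most of their range, while most starchy endosperm values of 9 DPA lie under the lowest of 6 DPA.

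**Figure D1:**
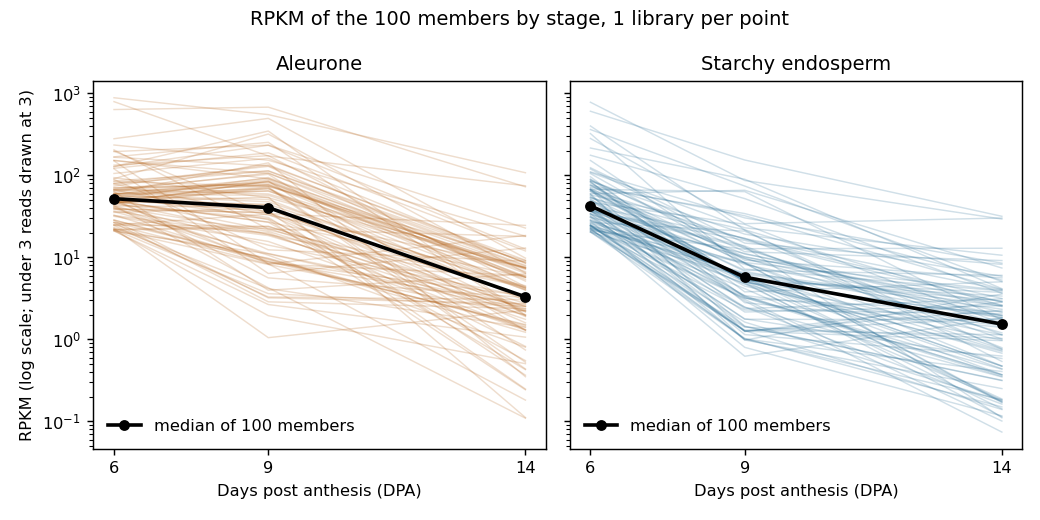
RPKM of the 100 sequences (vertical axis, log scale, with counts under 3 reads drawn at 3 reads) against days post anthesis, with aleurone on the left and starchy endosperm on the right. Each thin line is 1 sequence over the 3 libraries of the tissue and the black line joins the medians; the aleurone median stays near 40.4 at 9 DPA while that of starchy endosperm has dropped to 5.72.

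As a share of all reads, the 100 sequences together held 0.659% of the aleurone library at the first stage, 0.557% at the second and 0.0568% at the last. The corresponding shares in starchy endosperm were 0.562%, 0.0926% and 0.0225%. The summed level in aleurone at 9 DPA therefore stood close to that at 6 DPA, and in starchy endosperm the larger part of the summed level was gone at 9 DPA. The 5 most abundant sequences supplied 37.3% of the group's reads in 6 DPA aleurone and 37.4% in 6 DPA starchy endosperm. Only 11 of the 100 exceeded 100 RPKM in both 6 DPA libraries.

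The most abundant member at 6 DPA was TC391974 (1331 bases). Its aleurone levels at 6, 9 and 14 DPA were 884, 550 and 108 RPKM. Its levels in starchy endosperm were 779, 86.6 and 29.3 RPKM. At 9 DPA it was 1.61-fold lower than at 6 DPA in aleurone (exact 95% interval 1.55 to 1.67) and 9.00-fold lower in starchy endosperm (8.22 to 9.88). Such intervals allow for counting error alone, since PCR copies of a molecule cannot be recognised here. At 9 DPA the aleurone library stood 6.35-fold above the starchy endosperm library (5.77 to 7.01), from 3330 and 473 reads, where the ratio at 6 DPA was 1.13. Of its 6 DPA reads, 28.2% were unique to it, and the placing of the others among like sequences is not described.

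The next most abundant sequence, of 703 bases, was also higher in aleurone at 9 DPA, with 634, 678 and 72.5 RPKM at 6, 9 and 14 DPA in aleurone and 605, 154 and 31.7 RPKM in starchy endosperm. The third, of 785 bases, was lower in both tissues at 9 DPA. It had 792, 172 and 74.6 RPKM in aleurone and 282, 25.8 and 30.2 RPKM in starchy endosperm, where its level at 14 DPA was no lower than at 9 DPA.

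The most complete loss in both tissues was that of TC383905 (724 bases), whose reads were 100% unique at 6 DPA. It had 42.6 RPKM in aleurone and 86.5 RPKM in starchy endosperm at 6 DPA, from 837 and 1916 reads. At 9 DPA it had 4.25 RPKM in aleurone and 13.5 RPKM in starchy endosperm, from 14 and 40 reads. At 14 DPA it had no reads in either library, which allows up to 3 reads in each. With 14 DPA set at 3 reads, it was at least 390-fold lower than at 6 DPA in aleurone and at least 783-fold lower in starchy endosperm. It was the only one of the 100 without reads in both 14 DPA libraries, and one of 12 that were lower in aleurone than in starchy endosperm at 9 DPA. By 9 DPA it was 10.02-fold lower in aleurone (5.94 to 18.4) and 6.43-fold lower in starchy endosperm (4.70 to 9.03), intervals that overlap.

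By the choice of members, the difference from 6 to 14 DPA was at least 8-fold in both tissues, and it was larger in starchy endosperm for 72 of the 100. With counts under 3 set at 3 reads, the median was 12.9-fold in aleurone and 34.8-fold in starchy endosperm. Over the 6969 sequences that met the 6 DPA criteria the medians were 1.39-fold and 2.53-fold. The larger value in starchy endosperm is thus not particular to the members. The sequences just inside the limit were 8.002-fold, 8.02-fold and 8.04-fold lower in their less changed tissue, and those just outside were 7.96-fold, 7.94-fold and 7.94-fold lower. The smaller of the 6 DPA values came down to 20.4 RPKM inside the level limit, and the nearest sequence outside it had 19.9 RPKM. The limits cut through a continuum, since 33 of the 100 were less than 10-fold lower in their less changed tissue, and 30 had under 25 RPKM in one of the 6 DPA libraries. Membership also depends on the scaling of the libraries. TMM (trimmed mean of M values), which corrects library totals for a few very abundant sequences, lowers all log2 ratios of 6 to 14 DPA by 0.62 in starchy endosperm and by 0.13 in aleurone, and 67 of the 100 then still met the rule. With DESeq2 size factors 61 did.

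Among 6969 sequences that met the 6 DPA criteria, 182 were at least 8-fold lower at 14 DPA in aleurone, 2.61%, and 968 in starchy endosperm, 13.9%. The 100 that were lower in both made up 54.9% of the first list and 10.3% of the second. Nothing is read from these shares, as the same libraries chose the members. The other sequences comprised 82 that were 8-fold lower in aleurone only, 868 in starchy endosperm only and 5919 in neither.

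At 9 DPA, 76 of the 100 sequences were at least 4-fold lower than at 6 DPA in starchy endosperm, against 18.7% of the 6969 that met the 6 DPA criteria. In aleurone, 19 of the 100 were at least 4-fold lower at 9 DPA, against 7.79%. The median log2 ratio of 6 to 9 DPA was 3.02 in starchy endosperm and 0.30 in aleurone, against 0.70 and 0.30 over the 6969. In aleurone the median member was therefore no lower by 9 DPA than the median of those 6969, while the members in starchy endosperm stood far below it. All but 1 of the 100 were lower at 9 DPA than at 6 DPA in starchy endosperm, against 72.4% of the 6969. In aleurone 61 were, against 64.6%, which is near the background. The level at 6 DPA was part of the choice, so these shares are a description, and with 1 library per tissue and stage the difference between the tissues was not tested. Reads unique to a sequence gave 64 in starchy endosperm and 11 in aleurone, counts for which no share of the 6969 is given.

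**Figure D2:**
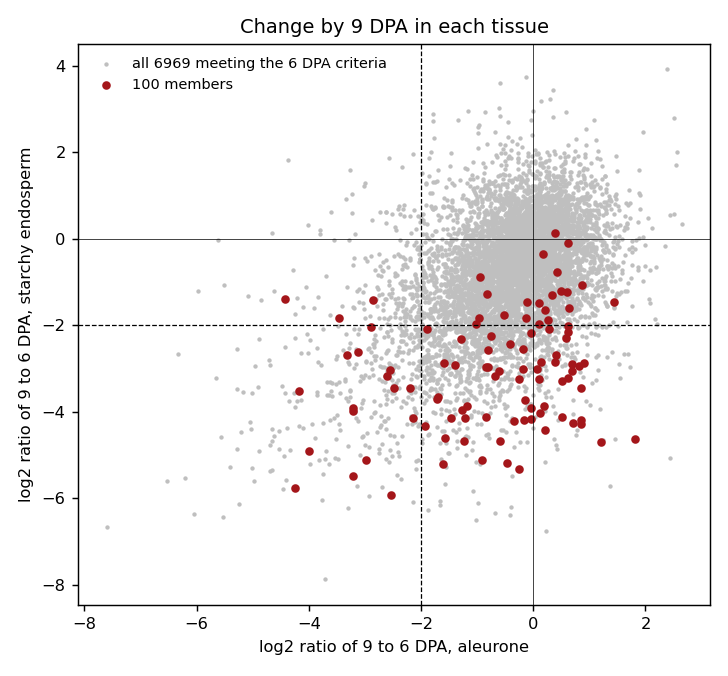
Log2 ratio of 9 to 6 DPA in aleurone (horizontal axis) and in starchy endosperm (vertical axis), with 1 point per sequence, grey for the 6969 sequences that met the 6 DPA criteria and red for the 100 members. The dashed lines mark 4-fold lower, and 60 of the red points lie in the lower right field, 4-fold lower in starchy endosperm only.

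With a limit of 4-fold by 9 DPA, the 100 sequences fell into 4 timing classes. The largest held 60 sequences that were 4-fold lower in starchy endosperm only, against 13.9% of the 6969. Their median levels in aleurone were 53.4, 55.8 and 3.70 RPKM at 6, 9 and 14 DPA, and in starchy endosperm 41.4, 4.61 and 1.17 RPKM. By 9 DPA, 44 of these were still within 2-fold of 6 DPA in aleurone. A 4-fold lower level in starchy endosperm with an aleurone level within 2-fold was thus found in 44 of the 100, against 7.68% of the 6969. Of the other 16, 14 were 2-fold to 4-fold lower in aleurone and 2 were over 2-fold higher. Another 16 sequences were 4-fold lower in both tissues by 9 DPA, against 4.79% of the 6969. Their median levels were 45.8, 4.93 and 3.14 RPKM in aleurone and 63.5, 4.83 and 0.736 RPKM in starchy endosperm. At 9 DPA the tissues were within 2-fold of each other for 8 of these 16, aleurone was at least 2-fold higher for 6 and starchy endosperm for 2.

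A further 21 sequences were 4-fold lower in neither tissue by 9 DPA, against 78.3% of the 6969. They had median levels of 54.6, 68.4 and 2.74 RPKM in aleurone and 41.7, 17.1 and 2.52 RPKM in starchy endosperm. The median of this class in starchy endosperm at 9 DPA was still below that in aleurone. Aleurone was at least 2-fold higher for 15 of the 21, starchy endosperm for 1, and the tissues were within 2-fold for 5. The remaining 3, TC392323, TC403645 and TC441411, were 4-fold lower in aleurone only, against 3% of the 6969. These and all identifiers below were singled out after their values were seen. Of their 6 DPA reads only 19.95%, 9.30% and 7.45% were unique, so their values depend on how shared reads were placed. The median unique share was 62.5% in the class of 60 and 38.2% in the class of 16.

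**Figure D3:**
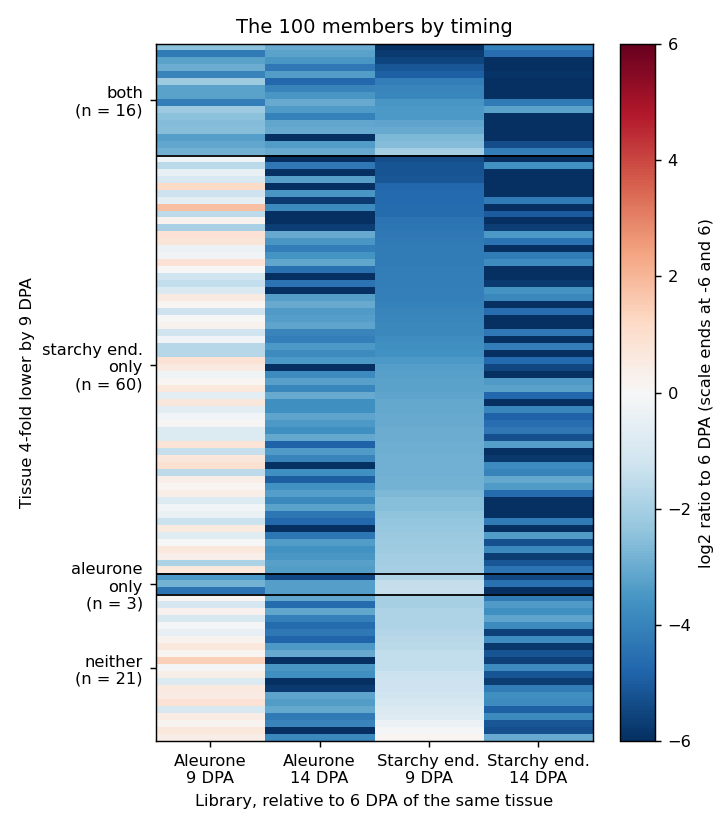
Log2 ratio to the 6 DPA library of the same tissue (colour, with ends at -6 and 6) for the 100 sequences (rows) in the 9 and 14 DPA libraries of each tissue (columns). Rows are grouped by the tissue that was 4-fold lower by 9 DPA, and the block of 60 shows pale aleurone values beside dark starchy endosperm values at 9 DPA.

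The tissue ratio at 9 DPA used no library of the rule. The median log2 ratio of aleurone to starchy endosperm at 9 DPA was 2.56 over the 100 sequences and cannot be given an error from single libraries, against 0.27 over the 6969. Aleurone was higher in 88 of the 100, against 58.8%, and at least 4-fold higher in 60, against 11.3%. Starchy endosperm was at least 4-fold higher in 1, against 3.8%, namely TC392323, which had 0.699 RPKM in aleurone from 2 reads and 8.52 RPKM in starchy endosperm from 22 reads. At 6 DPA the members' ratio had a median log2 value of 0.17, within the 4-fold limits of the choice. Aleurone was then higher in 59 of the 100, against 47% of the 6969, and with TMM scaling in 49, against 37.2%. Neither tissue can thus be called the higher one at 6 DPA. The members' share stood above that of the 6969 with both scalings, a difference that was not tested. At 14 DPA aleurone was higher in 73, against 78%, with a median log2 ratio of 1.47, against 0.82 over the 6969. TMM lowers all log2 ratios of aleurone to starchy endosperm at 14 DPA by 0.69, and aleurone was then higher in 66, against 55.0% of the 6969. By the count higher in aleurone, the members thus stood below the 6969 with library totals and above them with TMM. By the median log2 ratio they stood above them with library totals, and TMM shifts both medians alike. The 14 DPA levels were part of the choice, and no order at 14 DPA is read from these values.

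**Figure D4:**
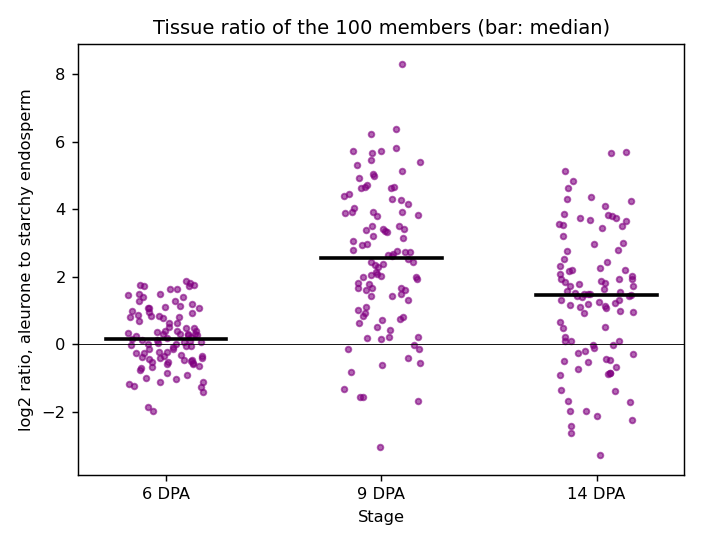
Log2 ratio of aleurone to starchy endosperm (vertical axis) at 6, 9 and 14 DPA for the 100 sequences, 1 point each, with the median as a bar. The points at 6 DPA lie within 4-fold by the choice of members, and the 3 medians are 0.17, 2.56 and 1.47.

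With counts under 3 set at 3 reads, the widest separation at 9 DPA was that of TC436688 (725 bases, 93.3% of its 6 DPA reads unique). It had 90.8, 319 and 6.48 RPKM in aleurone at 6, 9 and 14 DPA and 24.99, 1.01 and 0.184 RPKM in starchy endosperm. At 9 DPA this was a ratio of 316 between the tissues, from 1052 reads in aleurone and 3 reads in starchy endosperm. TC436688 was also one of 3 sequences at least 2-fold higher in aleurone at 9 than at 6 DPA, with TC447956 and BQ166713, against 4.92% of the 6969. All 3 were also at least 2-fold lower in starchy endosperm, a pairing found in 1.19% of the 6969. TC447956 (708 bases) went from 128 to 347 RPKM in aleurone and from 38.01 to 13.8 RPKM in starchy endosperm. BQ166713 (226 bases) went from 61.4 to 142 RPKM in aleurone, and in starchy endosperm from 84.4 RPKM to no reads. With its 9 DPA count set at 3 reads it was at least 26.1-fold lower there, and aleurone stood at least 43.9-fold above starchy endosperm at 9 DPA, so its separation may be wider than this value shows. By 14 DPA these 3 had at most 6.48 RPKM in aleurone and at most 0.791 RPKM in starchy endosperm.

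In aleurone at 9 DPA, 63 of the 100 were within 2-fold of 6 DPA, against 70.4% of the 6969, and in starchy endosperm 5 were, against 52.9%. Those 5 were TC417390, TC451347, TC453916, BJ218728 and CK151766. TC453916 (511 bases) was the only one above its 6 DPA level in starchy endosperm, with 59.8, 65.8 and 7.41 RPKM at 6, 9 and 14 DPA. It had 59.0, 77.0 and 4.08 RPKM in aleurone, and 12.9% of its 6 DPA reads were unique. TC417390 (727 bases, 76.2% unique) had 67.5, 63.3 and 1.72 RPKM in starchy endosperm and 46.0, 71.1 and 0.435 RPKM in aleurone. All 5 were within 2-fold of their 6 DPA level at 9 DPA in both tissues. Their lower levels at 14 DPA are part of the choice, and TC453916 still had 79 reads in aleurone and 142 in starchy endosperm then.

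The low end at 9 DPA was limited by depth in starchy endosperm. The members had a median of 16 reads there, 17 had under 3 reads, and 3 (TC423183, BQ166713 and CA621140) had none. In aleurone the median was 97.5 reads, and 1 had under 3 reads. After all libraries were thinned to 4104682 reads, 75 members were 4-fold lower in starchy endosperm and 19 in aleurone, about as before. This depth is that of the 9 DPA starchy endosperm library, which lost no reads. The thinned counts therefore cannot show how its low depth bears on the members, and nothing is read from them on that.

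The interval from 9 to 14 DPA is described only, since its end was part of the choice: a sequence little changed by 9 DPA had to be far lower by 14 DPA. In it, 81 of the 100 sequences were at least 4-fold lower in aleurone, against 7.03% of the 6969, and 58 in starchy endosperm, against 13.3%. With TMM scaling the numbers were 77, against 6.00%, and 43, against 4.39%. Nothing is read from these shares. On the log2 scale, a median of 6.31% of the aleurone fall from 6 to 14 DPA had taken place by 9 DPA, and 55.9% of that in starchy endosperm. The larger of the 2 log2 steps came after 9 DPA in aleurone for 82 sequences, against 46.4% of the 6969. In starchy endosperm it came before 9 DPA for 56, against 49%, and with TMM scaling for 67, against 66.7%, so the members were near the background there.

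Not every member went on down after 9 DPA. In aleurone, TC392323, TC421615, CA606040 and DR739994 were higher at 14 than at 9 DPA. TC421615 (475 bases) had 150, 8.33 and 18.5 RPKM in aleurone, with 1.82% of its 6 DPA reads unique. CA606040 (588 bases) had 120, 6.36 and 13.0 RPKM in aleurone and 67.3, 0.414 and 2.86 RPKM in starchy endosperm. In starchy endosperm 16 sequences had a higher RPKM at 14 than at 9 DPA, from 0 to 83 reads at 9 DPA. With counts under 3 set at 3 reads the number was 10.

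The 9 DPA pattern of the members was set beside that of sequences lost in 1 tissue only. Of the 868 sequences that were 8-fold lower at 14 DPA in starchy endosperm only, 50.9% were at least 4-fold lower there by 9 DPA and 15.7% were in aleurone. Of the 82 that were 8-fold lower in aleurone only, 34.1% were 4-fold lower by 9 DPA in starchy endosperm and 8.54% in aleurone. Of the 5919 that were lower in neither, the shares were 12.8% and 6.44%. Starchy endosperm thus had the larger share in each of these sets. The sets were chosen on 14 DPA levels, so the order of their shares is a description, and nothing here was tested as particular to the 100. Their median tissue ratio at 9 DPA was 5.89-fold, against 1.59-fold for the 868 and 2.63-fold for the 82, aleurone being higher in each case.

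**Figure D5:**
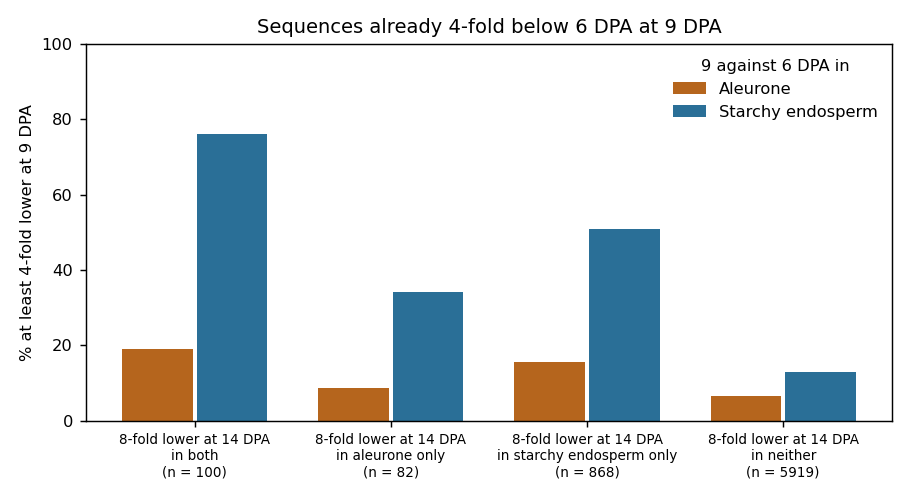
Percent of sequences at least 4-fold lower at 9 than at 6 DPA (vertical axis) in aleurone and in starchy endosperm, for the 4 sets of sequences defined by 8-fold lower levels at 14 DPA. The bars are shares of single-library comparisons without error bars, at 19% and 76% for the 100 members and 6.44% and 12.8% for the 5919 sequences lower in neither.

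Across the 100 sequences, the log2 ratios of 9 to 6 DPA in aleurone and in starchy endosperm were weakly related (Pearson r = 0.26, Spearman rho = 0.24, n = 100). This is a correlation across sequences of 4 libraries, which share depth and reads and are not independent replicates. In these libraries, how far a member had dropped in one tissue by 9 DPA therefore said little of the other tissue. The choice bounded the set, and 17 members had under 3 reads in starchy endosperm at 9 DPA. No independence of the tissues is read from this value.

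Length, kind of identifier and uniqueness of reads were not criteria of the choice. The RPKM that made the choice does depend on length and on how shared reads were placed. The median length of the members was 635 bases (170 to 1811), against 799 over the 6969 and 644 over the whole set of 221925. Identifiers that begin with TC made up 75 of the 100 members, against 83.6% of the 6969 and 42.1% of the whole set. Their median share of unique reads at 6 DPA was 54.7% (0.715% to 100%), against 46.9% over the 6969, and 8 members had under 10%. No test was made of these differences, as members that share reads are not independent.

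All 6 libraries were also fitted together by the quasi-likelihood method of edgeR, with factors for tissue and for stage and counts scaled by TMM. All 100 members passed the filter of at least 10 reads in at least 3 libraries. With 1 library per tissue and stage, the residual spread of this fit is how far the tissue difference varied between stages. It is not replicate error. A tissue difference seen mainly at 9 DPA, as described above for the members, enters that spread. It thus enters the SE and p values of the tissue and stage contrasts. For the tissue effect over the 3 stages, 1 of the 100 passed an adjusted p of 0.05 (Benjamini-Hochberg), against 6.1% of the 75040 sequences tested. This was TC427744 with an adjusted p of 0.0419 in edgeR, which was higher in aleurone by 3.44 on the log2 scale (SE 0.81). The count was 0 without either 9 DPA library, against 0% of all tested in both fits. Of 95 to 100 members tested in each fit, it was 7 without 6 DPA aleurone, against 3.47%, and 5 without that of starchy endosperm, against 3.63%. When the 14 DPA library of aleurone was left out it was 19, against 13.4%, and without that of starchy endosperm it was 18, against 14%. The DESeq2 Wald test called 16, against 14%. The members' count thus stood under the share of all tested with all 6 libraries in edgeR, and above it in 4 of the 6 fits with a library left out. The median log2 fold change of tissue was 0.89 over the members, with aleurone higher in 80 and lower in 20. Over all tested it was 0.01, with aleurone lower in 37164 of 75040. The rule bounded this ratio at 6 DPA.

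For 9 against 6 DPA, averaged over the tissues, edgeR called 0 members lower, against 0% of all tested. At an unadjusted p under 0.05, edgeR had 32 members lower, against 5.58%, and the DESeq2 Wald test called 12 at its adjusted p, against 0.882%. The members' median log2 fold change was -1.68, with 97 below 0, against -0.14 over all tested, with 41394 of 75040 below 0. These shares are a description, since the 6 DPA values and the 14 DPA libraries in the fit also chose the members and did not choose the other sequences tested. The smallest adjusted p of any member was 0.282 in edgeR, and edgeR called 16 members when the 14 DPA aleurone library was left out, against 1.25% of all tested, and 22 when that of starchy endosperm was, against 1.53%. For 14 against 6 DPA, the contrast that chose the members, edgeR called 7 of the 100 lower, against 0.506% of all tested, and nothing is read from this count.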

How the data were processed

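RNA-seq libraries of microdissected aleurone and starchy endosperm at 6, 9 and 14 DPA were analysed, 1 pooled library per tissue and stage, 6 in all. Per the labels' protocols, RNA was amplified from an oligo-dT primer, the libraries had 15 cycles of PCR, and the sequencer was a Genome Analyzer IIx. Neither the aligner nor the version of the sequence set is named in the sources used here. The deposited tables hold the authors' counts of total and unique reads per sequence and their RPKM, which total counts and lengths gave again to within 5e-04. The authors' transformed score, present for 6 DPA per the file headers, was not used.

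The members and lists were chosen with earlier results of these data known. Members were found on the deposited RPKM. Folds used total counts scaled to library totals and length, with counts under 3 set at 3 reads; intervals and this floor cover counting error alone. Fits used edgeR 4.0.16 and DESeq2 1.42.0 in R 4.3.3, after the filter of 10 reads in 3 libraries. The edgeR fit had 2 residual and 6.683 prior degrees of freedom. Only its tissue contrast was tried on simulated data, and nothing is read from that run. Stage pairs the tissues and was in the model. Named by rule were the member most abundant at 6 DPA and the one with the largest smaller fall to 14 DPA; others were chosen after their values were seen. The cell cycle, aleurone and starchy endosperm gene lists could not be matched to the identifiers and were not counted. Alternatives were unique reads, TMM and DESeq2 scaling, thinned depth, other limits, no filter and single libraries left out.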

Additional observations from a re-analysis of the deposited data

Results flagged for a closer look

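At 9 DPA, 38 of the 100 sequences were higher than at 6 DPA in aleurone and lower in starchy endosperm, against 21.2% of the 6969 sequences that met the 6 DPA criteria, and 0 moved the other way, against 13.3%. They stand out because the single libraries of the 2 tissues moved in opposite directions, and the difference was not tested, as there was 1 library per tissue and stage. With a limit of 2-fold in each direction the number among the 100 was 3 (TC436688, TC447956 and BQ166713), against 1.19% of the 6969. Most of the 38 were thus within 2-fold of 6 DPA in aleurone, a size for which no replicate error is at hand. Without the 2-fold limit, the number was 35 on unique reads, and with TMM scaling it was 38, against 22.6% of the 6969.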

How the results depend on the processing

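Which sequences belong depends on scaling. TMM lowers all log2 ratios of 6 to 14 DPA by 0.62 in starchy endosperm and by 0.13 in aleurone, and 68 sequences then met the rule, of which 67 were among the 100. DESeq2 size factors gave 63 (61 shared), unique reads 106 (64 shared) and thinned libraries 109 (76 shared). A 14 DPA limit of 4-fold gave 405 and of 16-fold 27, and a 6 DPA limit of 10 RPKM gave 189 and of 50 RPKM 32.
The share 4-fold lower by 9 DPA in starchy endosperm (76 of 100) stayed within 1.5 times under every alternative run, with 41 of 54 among members with at least 50% unique reads and 48 of 63 with members chosen again on DESeq2 size factors. That in aleurone (19) was 11 on unique reads, 5 of 54 among members with at least 50% unique reads, 34 at a 2-fold and 10 at an 8-fold limit, and 11 of 106 with members chosen again on unique reads. The median log2 tissue ratio at 9 DPA then was 1.97. Choosing members again, and the counts of steps and tissue order, were alternatives chosen after seeing the data.
The edgeR counts moved most. Members called between tissues (1, against 6.1% of all tested) were 3 with library totals (7.08%), 14 with no filter (7.11%), 0 on unique reads (6.14%), 16 with DESeq2's test (14%) and 0 with no replicate block, stage left out (0.6%). Leaving out single libraries gave 0 to 19 (0% to 14%). The members' share thus lay under that of all tested in some fits and above it in others. Members called lower at 14 than 6 DPA were 18 (0.725%), 100 (2.29%), 8 (0.517%), 95 (3.57%) and 0 (0%) in the same order, where the block left out was tissue, and 0 to 90 (0% to 3.8%) without single libraries. For 9 against 6 DPA they were 18 with no filter (0.708%), 12 with DESeq2's test (0.882%) and 0 to 22 without single libraries (0% to 1.53%). The cause was not tested. Depth limits the 9 DPA starchy endosperm values, where 17 members had under 3 reads.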
